A study of Mus musculus with 4 samples.

Results

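Gene expression was compared between CD4+ T cells stimulated for 3 days and naive CD4+ T cells. The Th0 library came from cells stimulated through CD3 and CD28 for 3 days. Naive cells were CD4+ T cells selected directly from the spleen. Both were from wild-type C57BL/6 mice, as were the Th17 and Treg libraries, which were collected at 3 days in Th17 and Treg culture, for which the labels name no cytokines. Each group had 1 library, and nothing in the labels tells how many mice it came from. All genes with at least 10 read counts in the Th0 or the naive library were taken, which gave 13995 of the 34745 genes in the table.

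Engagement of the T cell receptor together with CD28 takes a resting T cell out of quiescence. Over the following days the cell grows, replicates its DNA and divides repeatedly, and it remodels its metabolism, its surface receptors and its cytokine genes. Resting T cells hold transcription factors and homing receptors that keep them circulating between blood and lymphoid tissue, several of which are lost on activation.

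The total count was 10272122 in Th0 and 11901949 in naive, and 11686 and 13526 genes had at least 10 counts. Levels are given as CPM, the count divided by the TMM-scaled library size in units of 1e6 reads, on which 1 count was worth 0.114 CPM in Th0 and 0.0817 CPM in naive. To be called higher or lower, a gene needed a log2 ratio of CPM + 1, Th0 over naive, of at least 1 or at most -1, with a 95% counting interval of the ratio that left out equality. Folds are ratios of CPM, Th0 against naive, and the range in parentheses after a fold is that 95% counting interval. A fold against a library with 0 counts was taken against 3 counts and is given as "at least". With 1 library a side, the intervals cover counting error only, no difference has a replicate check, and no test between conditions was possible. In bulk RNA, fewer cells of a type and less RNA per cell cannot be told apart. Across the tested genes the median log2 ratio was -0.13. It was -0.38 with scaling to library totals and -0.25 with upper quartile scaling, so small differences are best read against that shift.

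Of the 13995 genes tested, 2590 (18.5%) were called higher and 3807 (27.2%) lower in Th0, and 7598 met neither rule. Higher genes made up 40.5% of the calls, or 29.6% with scaling to library totals. Differences of large size leaned towards lower levels, since 193 called genes were at least 8-fold higher on the log2 scale with 1 CPM added and 733 at least 8-fold lower. A total of 9534 tested genes reached 10 CPM in Th17 or Treg and are called culture-expressed here. Of these, 2049 (21.5%) were higher and 1640 (17.2%) lower. This set is chosen on cultured libraries, so by construction it keeps genes gained in culture and leaves out genes lost in every culture, and the split of its calls is not a result. Transcripts were concentrated on fewer genes in Th0, where the 10 highest genes took 9.28% of the counts, against 5.50% in naive. In Th0, 103 genes reached 1000 CPM, against 67 in naive.

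**Figure D1:**
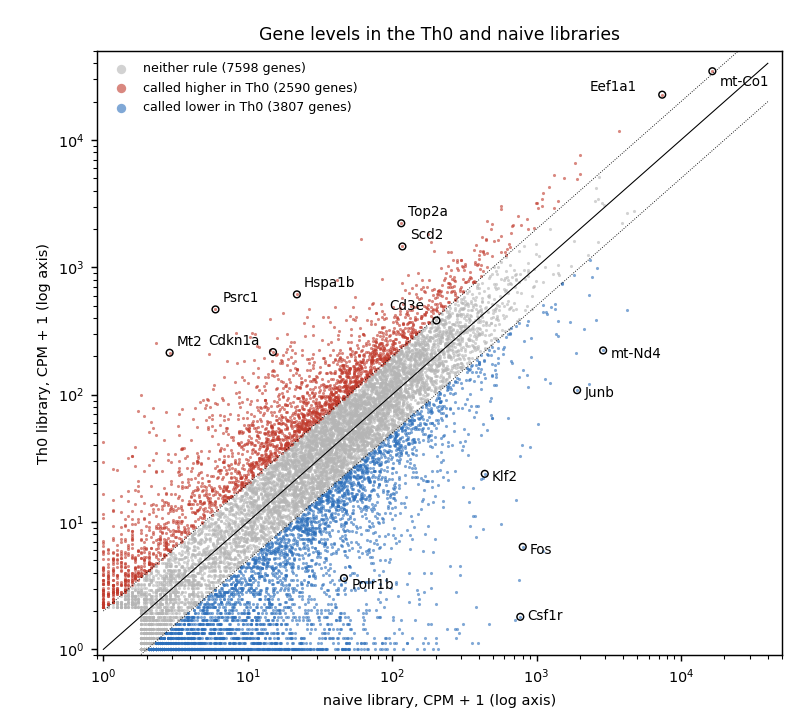
Each tested gene by its CPM + 1 in Th0 (vertical, log axis) and naive (horizontal, log axis), coloured by call, with 2-fold limits dotted. The 2590 higher genes lie above the upper limit, the 3807 lower genes below the lower limit, and circled genes are labelled with their symbols.

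For some genes named below the count is uncertain, since their transcripts share at least 300 nt at 95% identity or more with a transcript of another gene and the counting may have split or lost reads. These are Ccnd1, Ccnd3, Cdc25c, Chaf1a, Cish, Eef1a1, Eef2, Fen1, Foxp3, Gbp10, Gbp6, Gpi1, Hmgcs1, Hspa1a, Hspa1b, Hspa8, Hspb1, Hspe1, Il12rb2, Il21, Ldha, Lef1, Mcm7, Npm1, Npm3, Odc1, Pabpc1, Pcna, Pfkm, Pfkp, Rad54b, Rb1, Rbl2, Rpl32, Scap, Setd3, Slfn5, Trp53, mt-Co1, mt-Co3 and mt-Nd4. Others overlap another annotated gene, and as no source tells whether counting used strand, reads of the overlap cannot be told apart. These are Atp5d, Bop1, Ccnd1, Ccnd2, Ccnd3, Chaf1a, Cyp51, Ddit3, Eef1b2, Fen1, Foxp3, G6pdx, Gart, Gbp10, Gbp6, Gimap7, Gnb2l1, Gss, Hspe1, Icos, Il12rb2, Il2ra, Irf7, Itga4, Jak3, Kif18a, Lef1, Lig1, Mboat7, Mcm7, Mthfd2, Paics, Pfkm, Pfkp, Ptpn22, Ptprc, Rad54b, Rb1, Rbl2, Rpl32, Setd2, Shmt1, Sla, Slamf6, Stat4, Stat5a, Tcf7, Tg, Ticrr, Zeb2, mt-Co3, mt-Nd4, mt-Nd4l and mt-Nd6.

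The labels of both libraries were set against markers of T cells and of other cells of the spleen. The T cell identity genes, which encode the CD3 complex, CD4 and proximal signalling proteins, summed to 6488 CPM in Th0, 6415 in Th17, 6612 in Treg and 6036 in naive. Of 20 such genes, 2 were called higher in Th0, 4 lower and 14 neither. Cd4 had 959 CPM in Th0 and 698 CPM in naive, and Cd3e, a CD3 chain, had 382 CPM in Th0 and 202 CPM in naive. The summed level of the defining genes of T cells was thus close in the 4 libraries, unlike that of the markers of other cells. B cell markers, 14 in number, reached 473 CPM in Th0, 241 in Th17, 113 in Treg and 4044 in naive, and all 14 were called lower in Th0. The 14 macrophage and monocyte markers summed to 37.3 CPM in Th0, 66.6 in Th17, 70.6 in Treg and 5313 in naive, and all 14 were lower. Of the 13 dendritic cell markers, which include the class II antigen presentation genes, 12 were lower, Bst2 being the exception, and 4 had 0 counts in Th0. They summed to 517 CPM in Th0, 272 in Th17, 252 in Treg and 5544 in naive. The naive sum was mostly class II antigen presentation genes, with Cd74, H2-Ab1, H2-Aa and H2-Eb1 at 2306, 1021, 897 and 864 CPM. Clec9a, Siglech and Xcr1 had 20.4, 18.1 and 16.1 CPM in naive, and Bst2 gave 151 CPM of the Th0 sum.

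The 12 neutrophil markers summed to 1.49 CPM in Th0, 10.7 in Th17, 7.03 in Treg and 1738 in naive, with 12 called lower and 5 at 0 counts in Th0. The 12 erythroid and platelet markers summed to 7.33 CPM in Th0, 9.98 in Th17, 9.20 in Treg and 245 in naive, with 12 lower and 2 at 0 counts in Th0. Of 7 tested stroma and endothelium markers, 6 were lower, and the list of 10 summed to 49.6 CPM in Th0, 61.3 in Th17, 46.2 in Treg and 187 in naive. These sums are mostly Pecam1, which had 48.1 CPM in Th0, 58.4 in Th17, 44.6 in Treg and 167 in naive. CD8 T and NK cell genes went both ways, with 2 higher, 6 lower and 3 neither of 11. Their sum was 309.8 CPM in Th0, 253 in Th17, 324 in Treg and 191 in naive. The NK receptor genes Klrb1c and Ncr1 had 0 counts in Th0, while Cd8a met neither rule at 35.8 CPM in Th0 and 34.1 CPM in naive. Regulatory T cell genes summed to 722 CPM in Th0, 3247 in Th17, 2908 in Treg and 773 in naive, with 2 higher and 8 lower of 12. Foxp3, the gene of their lineage factor, had 1.37 CPM in Th0, 11.3 in Th17, 51.5 in Treg and 129 in naive. Cd44, an activation and memory marker of T cells, had 97.9 CPM in Th0, 173 in Th17, 201 in Treg and 162 in naive. The naive library thus held transcripts of non-T cells, of regulatory T cells and of Cd44. Their part in the differences below was not tested. For some of the groups below, the count is also given over culture-expressed genes.

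**Figure D2:**
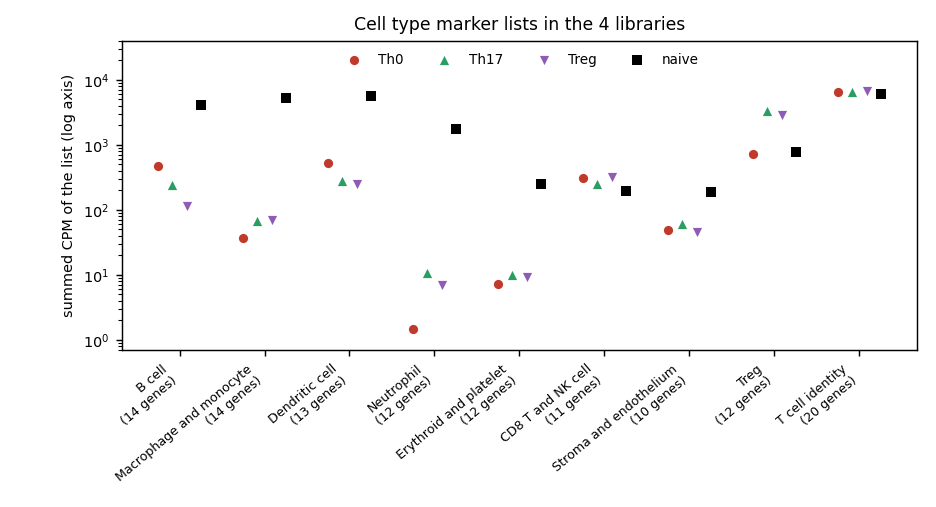
Summed CPM (log axis) of each cell type marker list in the Th0, Th17, Treg and naive libraries, 1 point a library. The T cell identity sums lie between 6036 and 6612 CPM, while the sums of every myeloid, B cell and erythroid list are highest in naive.

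The gene lists below cover the processes that T cell stimulation is known to touch. Shares of a list are to be read against 18.5% higher, 27.2% lower and 54.3% meeting neither rule over all tested genes.

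**Figure D3:**
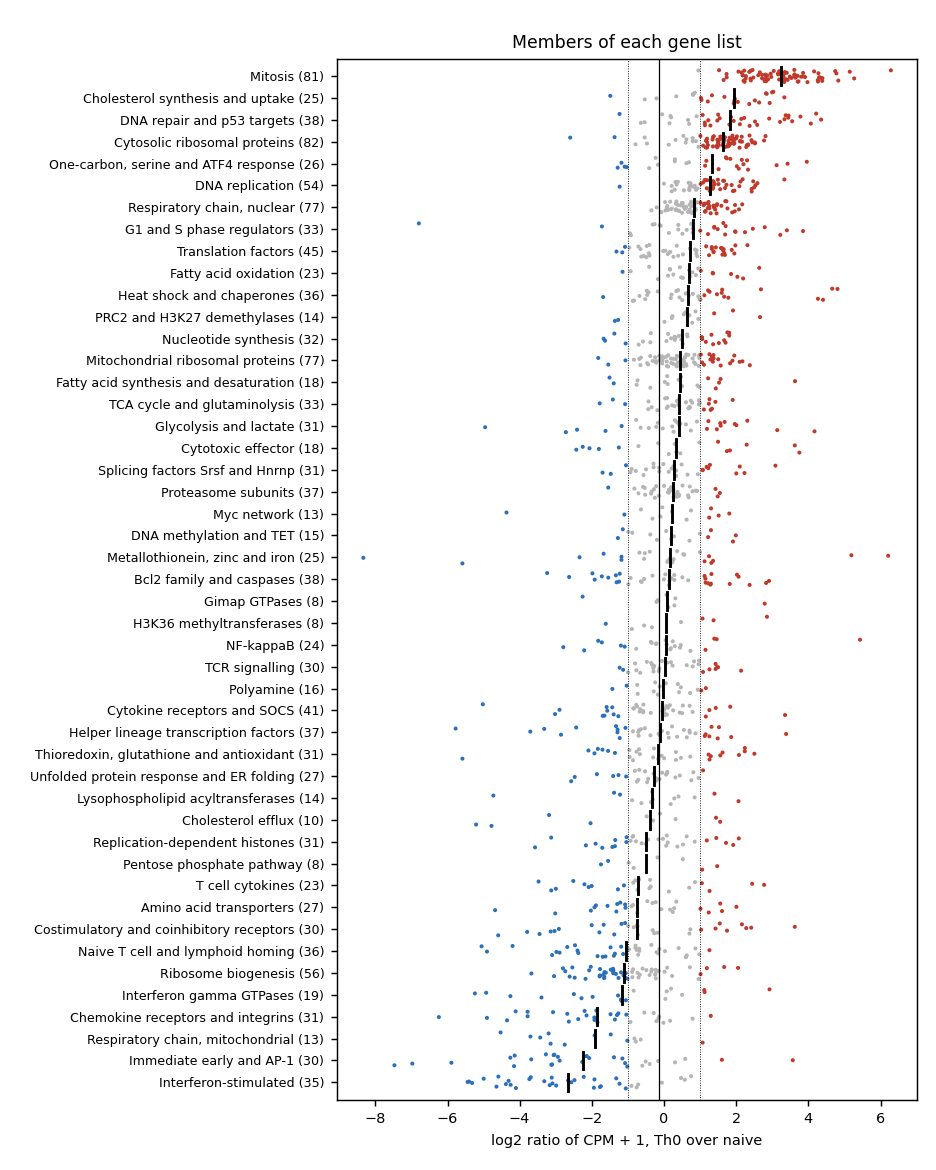
Log2 ratio of CPM + 1, Th0 over naive, for every tested member of 47 gene lists, 1 point a gene, red for higher and blue for lower calls. Black ticks are list medians, the solid line is the median of all tested genes (-0.13), and the number of tested members stands in parentheses; mitosis is highest at 3.25 and interferon-stimulated genes lowest at -2.66.

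Genes of mitosis were higher in Th0 almost without exception. Of 81 tested members, 80 were called higher and 0 lower, with a median log2 ratio of 3.25, and the list summed to 19431 CPM in Th0, 8952 in Th17, 10109 in Treg and 2283 in naive. Its summed level in Th17 and Treg lay between those of Th0 and naive. Psrc1, a spindle protein, was 93.6-fold higher (72.7 to 123) at 466 CPM. Cdc25c, the phosphatase that activates the mitotic kinase CDK1, had 77.8 CPM in Th0, against 1.22 CPM in naive. Kif18a, a kinesin that aligns chromosomes, was 23.6-fold higher (18.6 to 30.5), and Hmmr, a spindle protein also known as a hyaluronan receptor, was 22.7-fold higher (19.0 to 27.4). Nek2, a centrosomal kinase, was 23.6-fold higher (19.1 to 29.5). Among the most abundant members, Smc4 of the condensin complex had 1345 CPM in Th0 and 404 CPM in naive, and the proliferation marker Mki67 had 991 CPM in Th0 and 218 CPM in naive. The exception was Bub3, a spindle checkpoint protein, with 172 CPM in Th0 and 88.5 CPM in naive, which met neither rule.

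DNA replication genes were also higher, though by less. Of 54 members, 34 were called higher and 1 lower (median 1.28), and between 27 and 34 were higher over the scalings tried. Ticrr, which is needed to fire replication origins, was 10.96-fold higher (9.11 to 13.3). Lig1, the replicative DNA ligase, had 198 CPM in Th0 and 42.9 CPM in naive, and Pole, the catalytic subunit of the leading strand polymerase, had 116 CPM in Th0 and 20.7 CPM in naive. Of the MCM helicase, Mcm3, Mcm4 and Mcm6 were called higher, while Mcm2, Mcm5 and Mcm7 were not, with 145 CPM in Th0 and 98.5 CPM in naive for Mcm2. Pcna, the sliding clamp, met neither rule at 164 CPM in Th0 and 128 CPM in naive. The single member called lower was Fen1, the flap endonuclease, with 11.8 CPM in Th0 and 29.0 CPM in naive. The replicated DNA is packed by replication-dependent histones, whose messages lack a poly(A) tail. These were near the detection limit in both libraries: 69 genes summed to 88.3 CPM in Th0 and 181 CPM in naive, and of 31 tested, 5 were higher and 10 lower (median -0.50). As 24 of the 31 share sequence with a transcript of another gene, their counts are uncertain. Of the 7 without shared sequence, 0 were higher and 2 lower (median -0.86).

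Among regulators of G1 and S phase, 16 of 33 were higher, 2 lower and 15 neither (median 0.81). Counting only the 31 culture-expressed members, 16 were higher and 1 was lower. Foxm1, a transcription factor of G2 and mitotic genes, was 9.70-fold higher (8.55 to 11.03), and Mybl1, which encodes a MYB family factor, was 14.4-fold higher (9.93 to 21.5). Tfdp2, a dimer partner of E2F factors, was 7.48-fold higher (6.196 to 9.10), and E2f2 had 297 CPM in Th0 and 62.0 CPM in naive. The D-type cyclins, which start G1 progression, were not higher. Ccnd1 had 2 counts in Th0 and 1657 in naive. The part of non-T cells in its naive level was not tested. Ccnd3 had 48.5 CPM in Th0 and 162 CPM in naive, and Ccnd2 met neither rule at 277 CPM in Th0 and 524 CPM in naive. Among cell cycle inhibitors and pocket proteins, Cdkn1a, Cdkn1b, Cdkn2d, Rb1, Rbl1 and Rbl2 were called higher. Cdkn1a (p21) was 15.4-fold higher (13.2 to 18.1), Cdkn1b (p27) had 468 CPM in Th0 and 200.3 CPM in naive, and the retinoblastoma gene Rb1 had 405 CPM in Th0 and 103 CPM in naive.

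Cell cycle promoters are known for short motifs: the NF-Y box CCAAT and the cell cycle homology region (TTTGAA or TTCGAA) in genes of G2 and mitosis, and E2F sites (TTTCGCGC, TTTGGCGC, TTTCCCGC or TTCCCGCC) in genes of S phase. These letters were searched on both strands of the 250 bases before the start of each gene in RefSeq's promoter table (GRCm38.p6). Of the 81 mitosis genes, 71 had an entry, and 49 of these (69.0%) held the NF-Y box, against 40.8% of 10302 tested genes and 37.5% of all 27025 genes in the table. It was also in 27 of 45 DNA replication genes with an entry (60%). The cell cycle homology region was in 30 mitosis genes (42.3%) and 9 replication genes (20.0%), against 15.3% of tested and 19.6% of all genes. An E2F site was in 16 replication genes (35.6%) and 6 mitosis genes (8.45%), against 6.35% and 3.36%. The excess in replication genes was not particular to E2F sites. The metal response element TGCACNC, searched in the same way, was also in 16 replication genes (35.6%), against 12.5% of tested and 11.8% of all genes. It was in 2 mitosis genes (2.82%). E2F forms can overlap one another, and TTCCCGCC can share its last bases with CCAAT, as in Prim1. A match is a description of the letters, and nothing was measured about binding. Of 2 mitosis genes with both motifs close to the start, and 2 replication genes with an E2F site, the 150 bases before the start are shown 5′ to 3′ on the gene's strand, with the matches that chose the gene in capitals (ATTGG and TTCAAA are the other strand of CCAAT and TTTGAA). The windows lie at chr8:22185820-22185969, minus strand, for Ckap2, at chr19:37376232-37376381, plus strand, for Kif11, at chr10:128015065-128015214, plus strand, for Prim1, and at chr17:56040266-56040415, plus strand, for Chaf1a.
Ckap2: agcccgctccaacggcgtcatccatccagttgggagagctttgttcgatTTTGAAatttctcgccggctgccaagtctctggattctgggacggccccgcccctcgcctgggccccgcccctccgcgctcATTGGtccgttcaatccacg
Kif11: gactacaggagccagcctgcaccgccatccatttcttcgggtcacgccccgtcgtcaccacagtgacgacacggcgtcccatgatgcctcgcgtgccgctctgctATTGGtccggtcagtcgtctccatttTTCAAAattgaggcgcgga
Prim1: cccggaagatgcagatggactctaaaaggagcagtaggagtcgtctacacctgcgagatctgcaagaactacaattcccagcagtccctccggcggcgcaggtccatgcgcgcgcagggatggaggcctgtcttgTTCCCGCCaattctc
Chaf1a: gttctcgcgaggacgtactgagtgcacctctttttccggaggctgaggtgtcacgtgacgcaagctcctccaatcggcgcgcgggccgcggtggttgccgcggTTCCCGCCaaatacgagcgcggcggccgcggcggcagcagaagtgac
Ckap2, which encodes a spindle-associated protein, had 183 CPM in Th0, against 8.49 CPM in naive. Kif11, the motor that separates spindle poles, had 801 CPM in Th0, against 40.7 CPM in naive. Prim1, the catalytic subunit of primase, had 93.2 CPM in Th0 and 21.2 CPM in naive, and Chaf1a, the large subunit of the chromatin assembly factor, had 65.7 CPM in Th0 and 16.3 CPM in naive.

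**Figure D4:**
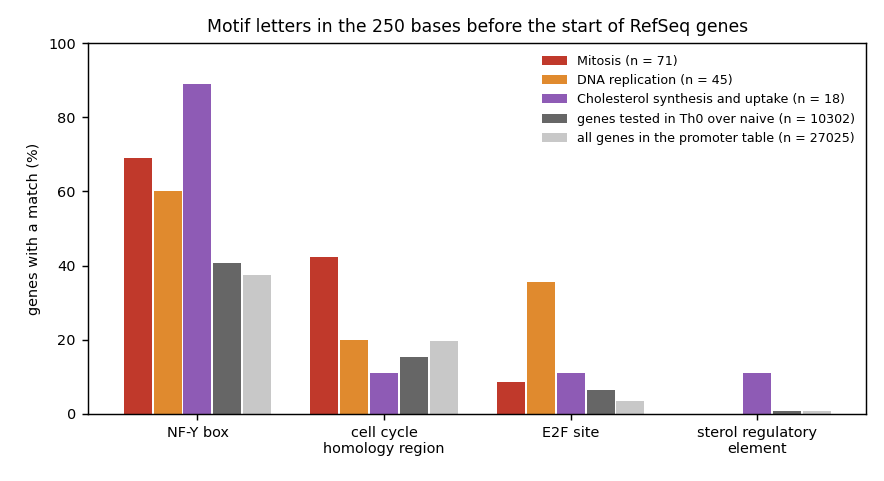
Share of genes (%, bars from 0) whose 250 bases before the start hold each motif on either strand, for mitosis, DNA replication and cholesterol genes, for the tested genes and for all genes in the promoter table. The NF-Y box is in 69.0% of mitosis and 40.8% of tested genes, and E2F sites in 35.6% of replication and 6.35% of tested genes.

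DNA repair genes and targets of the tumour suppressor p53 were higher in Th0. Of 38 members, 28 were called higher, 1 lower and 9 neither (median 1.83). Among repair genes, Rad51ap1 and Rad54b of homologous recombination were 24.5-fold higher (18.8 to 32.4) and 23.4-fold higher (17.3 to 32.3). Neil3, a DNA glycosylase, was 16.2-fold higher (12.5 to 21.3), and Fancd2 of the Fanconi anaemia pathway was 12.1-fold higher (9.81 to 15.2). Among known p53 targets, Zmat3 had 290.2 CPM in Th0, against 23.8 CPM in naive, Phlda3 36.7 CPM in Th0, against 2.45 CPM in naive and Ccng1 679 CPM in Th0, against 158 CPM in naive. Trp53inp1 had 1145 CPM in Th0, against 299 CPM in naive, and Mdm2, the ubiquitin ligase that degrades p53, was 3.54-fold higher (3.29 to 3.81). The p53 gene itself, Trp53, was the member called lower, at 66.2 CPM in Th0 and 157 CPM in naive. Its transcript shares sequence with that of another gene, so its count is uncertain. Pmaip1 (Noxa), a p53 target that promotes cell death, met neither rule at 81.6 CPM in Th0 and 128 CPM in naive, so the targets were not uniform.

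Genes of the BCL2 family and caspases went both ways. Of 38, 13 were higher and 10 lower, and the median of 0.14 turned to -0.12 with library totals. Over the 34 culture-expressed members, 12 were higher and 7 lower (median 0.18). Fas, the death receptor, was 7.78-fold higher (6.87 to 8.82), and its ligand Fasl met neither rule at 18.2 CPM in Th0 and 16.5 CPM in naive. Bbc3 (Puma) and Bax, which promote mitochondrial cell death, had 163 CPM in Th0 and 30.7 CPM in naive and 126 CPM in Th0 and 51.0 CPM in naive. Bcl2l1 (Bcl-xL), which opposes it, had 51.1 CPM in Th0 and 13.7 CPM in naive. Fadd, the adaptor that couples Fas to caspase 8, was 10.3-fold lower (5.61 to 21.1) at 1.26 CPM in Th0. Mcl1 and Bcl2 met neither rule.

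Cytosolic ribosomal protein genes took a larger share of the transcripts in Th0. Of 82 tested genes, 68 were called higher, 2 lower and 12 neither (median 1.64). Together they held 8.39% of the Th0 counts, against 3.09% in naive. They summed to 98669 CPM in Th0, 40189 in Th17, 39719 in Treg and 30012 in naive, so that Th17 and Treg lay nearer to naive. Most ribosomal protein genes have processed copies in the genome: 72 of the 82 shared at least 300 nt at 95% identity or more with a transcript of another gene, so how the counting split their reads is uncertain. Of the 10 that did not, 7 were higher and 1 lower. Among these, Rpl8 had 2927 CPM in Th0 and 1314 CPM in naive, and Rpl39 had 513 CPM in Th0 and 72.1 CPM in naive. Rpl32, with copies elsewhere, was 5.37-fold higher (5.23 to 5.52).

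Of 45 translation factors, 18 were higher and 3 lower (median 0.72), and over the 26 without shared sequence 7 were higher and 3 lower. The elongation factors Eef1a1 and Eef2 had 22682 CPM in Th0 and 7424 CPM in naive, and 11769.5 CPM in Th0 and 3739.7 CPM in naive. Both share sequence with other transcripts. Eef1b2, which recharges elongation factor 1 alpha with GTP, had 1148 CPM in Th0 and 297 CPM in naive. Of initiation factor 3, Eif3f and Eif3k were called higher and Eif3b lower, at 97.99 CPM in Th0 and 208 CPM in naive. Eif4ebp1, which restrains cap-dependent initiation, was 3.83-fold higher (3.26 to 4.50), and Pabpc1, the poly(A) binding protein, had 3320.2 CPM in Th0 and 1398 CPM in naive.

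Ribosome biogenesis ran the other way. This list holds the nucleolar machinery that transcribes and processes ribosomal RNA, and 31 of its 56 members were called lower, 4 higher and 21 neither (median -1.10). All 56 had at least 10 CPM in Th17 or Treg. Over the scalings tried, between 30 and 34 were lower. Polr1b, the second largest subunit of RNA polymerase I, had 2.63 CPM in Th0, 37.4 in Th17, 25.5 in Treg and 45.4 in naive. Bop1, which matures the large subunit, had 8.81 CPM in Th0, 72.2 in Th17, 63.7 in Treg and 80.2 in naive. Nolc1, a nucleolar chaperone, had 17.7 CPM in Th0, 105 in Th17, 83.1 in Treg and 103 in naive. Ftsj3, a ribosomal RNA methyltransferase, had 15.7 CPM in Th0, 70.3 in Th17, 61.1 in Treg and 101 in naive. Th0 was the lowest of the 4 libraries for each of these. Rrp12, Rrs1 and Grwd1 were 7.67-fold lower, 6.56-fold lower and 9.34-fold lower, and Ubtf, the upstream factor of RNA polymerase I, was 3.48-fold lower (3.18 to 3.81). The members called higher were Npm1, Ncl, Npm3 and Polr1c. Npm1 (nucleophosmin) had 2012 CPM in Th0 and 485 CPM in naive, with shared sequence elsewhere, and Ncl (nucleolin) had 1241 CPM in Th0 and 614 CPM in naive. In the summed level of the list with TMM scaling these abundant genes outweighed the rest, at 5106 CPM in Th0 and 4682 CPM in naive. With library totals the sum was lower in Th0, at 0.434% of the counts, against 0.482% in naive.

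The transcription factor MYC is known to drive ribosome biogenesis genes in activated T cells. Myc had 26.8 CPM in Th0, 64.9 in Th17, 54.7 in Treg and 58.5 in naive, and Mycl had 1 count in Th0 and 269 in naive. Over the MYC network, 4 of 13 were higher and 2 lower. The median of 0.22 turned to -0.05 with library totals. Mycl was the 1 tested member that was not culture-expressed, and of the other 12, 4 were higher and 1 lower (median 0.42). Mxi1, which competes with MYC for its partner MAX, was 3.57-fold higher (3.20 to 3.99).

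The respiratory chain is built from nuclear and mitochondrial genes, and the 2 sets differed in opposite directions. Of 77 nuclear genes, 30 were higher and 0 lower (median 0.82), with between 17 and 30 higher over the scalings. Cox8a, a subunit of cytochrome c oxidase, was 4.53-fold higher (4.23 to 4.86). Ndufa6 and Ndufv3 of complex I were 4.28-fold higher (3.91 to 4.69) and 3.47-fold higher (3.05 to 3.94), and Atp5d of ATP synthase was 3.74-fold higher (3.48 to 4.02). Succinate dehydrogenase was mixed, since Sdhd was called higher while Sdha met neither rule at 282 CPM in Th0 and 262 CPM in naive.

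The mitochondrial genome encodes 13 proteins on long precursor transcripts. Of these genes 9 were called lower and 1 higher (median -1.92), although they summed to 44996 CPM in Th0 and 45802 CPM in naive. Scaled to library totals the 13 genes held 3.83% of the Th0 and 4.71% of the naive counts. The higher one was mt-Co1, the catalytic subunit of cytochrome c oxidase, with 34662 CPM in Th0, 16814 in Th17, 17614 in Treg and 16515 in naive. It made up 77.0% of the counts of the 13 genes in Th0, against 36.1% in naive. Scaled to library totals it was 2.95% of the Th0 and 1.70% of the naive counts, which is under 2-fold. The other 12 summed to 10334 CPM in Th0, 16242 in Th17, 16559 in Treg and 29287 in naive. The genes of complex I summed to 1481 CPM in Th0, 4741 in Th17, 4747 in Treg and 10693 in naive. Mt-Nd4l, a complex I membrane subunit, had 32.3 CPM in Th0, 337 in Th17, 327 in Treg and 767 in naive, and was 23.8-fold lower (21.1 to 26.9). Its overlapping neighbour mt-Nd4 had 221 CPM in Th0, 1183 in Th17, 1143 in Treg and 2892 in naive. Mt-Cytb of complex III had 463 CPM in Th0, 1878 in Th17, 1941 in Treg and 4258 in naive. For 11 of the 13 genes the Th17 and Treg levels lay between those of Th0 and naive, the exceptions being mt-Co3 and mt-Nd6. Per length, mt-Co1 had 19080.1 FPKM and mt-Nd4l 92.4 FPKM in Th0, against 10998 and 2659 FPKM in naive. Of the 13 genes, 8 share sequence with other transcripts, and the other 5 were all lower.

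**Figure D5:**
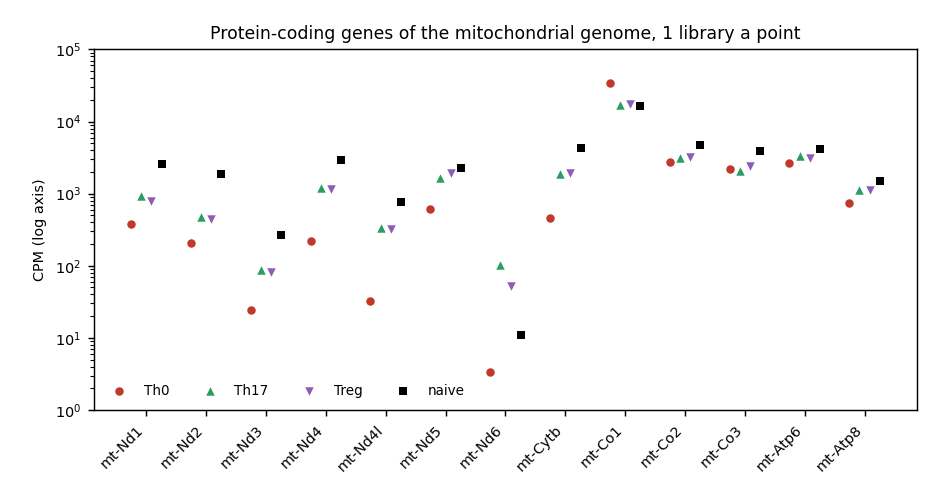
CPM (log axis) of the 13 protein-coding genes of the mitochondrial genome in the Th0, Th17, Treg and naive libraries, 1 point a library. In Th0 mt-Co1 is the highest of the 4 libraries and 11 of the other genes are at their lowest, the exception being mt-Co3.

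Mitochondrial ribosomal proteins mostly met neither rule, as did 54.3% of all tested genes. Of 77, 17 were higher and 3 lower (median 0.44), with Mrpl45 and Mrpl9 5.37-fold higher and 4.57-fold higher. Of 33 genes of the TCA cycle and glutaminolysis, 7 were higher and 3 lower (median 0.42). Cs, citrate synthase, had 516 CPM in Th0 and 205 CPM in naive, while Idh1 and Idh3a, isocitrate dehydrogenases, were lower at 10.2 CPM in Th0 and 37.5 CPM in naive, and 18.7 CPM in Th0 and 51.5 CPM in naive. Fatty acid oxidation had 7 of 23 higher and 1 lower (median 0.70). Acadl, a long-chain acyl-CoA dehydrogenase, was 3.67-fold higher (3.37 to 4.0004). Cpt1a, the entry step into mitochondria, met neither rule at 134 CPM in Th0 and 124 CPM in naive.

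In glycolysis, isoforms of the same step differed in direction. Of 31 members, 11 were higher, 5 lower and 15 neither (median 0.42), and of the 19 without shared sequence 5 were higher and 5 lower. Aldoc, an aldolase isoform, was 10.4-fold higher (7.92 to 13.8), and Eno2, an enolase isoform, 23.1-fold higher (16.8 to 32.5). Aldoa had 1135 CPM in Th0 and 282 CPM in naive and Gpi1, glucose phosphate isomerase, 1108 CPM in Th0 and 375 CPM in naive. Genes of glucose entry and its first steps were among the lower ones. Hk2, a hexokinase, had 3.21 CPM in Th0, 407 in Th17, 194 in Treg and 26.7 in naive. Pfkl, a phosphofructokinase isoform, had 11.3 CPM in Th0, 211 in Th17, 131 in Treg and 64.6 in naive, and Slc2a1 (GLUT1) had 18.5 CPM in Th0, 327 in Th17, 120.3 in Treg and 43.1 in naive. For these 3 genes Th0 was the lowest and Th17 the highest library. The phosphofructokinase isoforms Pfkp and Pfkm were called higher, at 368 CPM in Th0 and 133 CPM in naive, and 71.5 CPM in Th0 and 17.6 CPM in naive. Ldha, lactate dehydrogenase A, met neither rule at 497 CPM in Th0 and 402 CPM in naive. In the pentose phosphate pathway 2 of 8 were higher and 2 lower (median -0.51). The entry enzymes G6pdx and Pgd were lower, at 31.02 CPM in Th0 and 92.8 CPM in naive, and 41.2 CPM in Th0 and 141 CPM in naive. Tkt, transketolase, was 2.08-fold higher (1.999 to 2.17). Of 32 nucleotide synthesis genes, 12 were higher and 4 lower (median 0.49). Paics of purine synthesis had 272 CPM in Th0 and 76.9 CPM in naive. Atic and Gart of the same pathway were lower, at 40.1 CPM in Th0 and 130.01 CPM in naive, and 29.0 CPM in Th0 and 91.96 CPM in naive.

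Cholesterol synthesis and uptake had 18 of 25 genes called higher and 1 lower (median 1.93), and their sum was 4055 CPM in Th0, 3066 in Th17, 3019.9 in Treg and 1166 in naive. Sterol-responsive genes are known to be switched on by SREBP2 when membrane cholesterol is low. Insig1, which retains SREBP in the endoplasmic reticulum, had 403 CPM in Th0, 164 in Th17, 152 in Treg and 55.3 in naive. Stard4, a sterol carrier, was 5.87-fold higher (5.26 to 6.56), Cyp51 5.24-fold higher (4.75 to 5.78), and Srebf2 itself 2.32-fold higher (2.23 to 2.41). The gene called lower was Scap, the escort of SREBP, at 43.3 CPM in Th0 and 123 CPM in naive, with shared sequence elsewhere. In the promoter table, 18 of the 25 genes had an entry, and 16 (88.9%) held the NF-Y box. The sterol regulatory element (TCACCCCAC or TCACCCCAT) was in 2 (11.1%), against 0.777% of tested genes. The window of Hmgcs1, HMG-CoA synthase, which held one, is shown with that match in capitals (chr13:119690201-119690350, plus strand, 150 bases before the start).
Hmgcs1: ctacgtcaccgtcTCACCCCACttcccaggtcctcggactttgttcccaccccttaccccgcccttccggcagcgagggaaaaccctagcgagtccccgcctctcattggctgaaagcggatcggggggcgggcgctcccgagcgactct
Hmgcs1 had 413 CPM in Th0, against 49.7 CPM in naive.

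Lipid genes outside this pathway were mixed. Cholesterol efflux genes had 2 of 10 higher and 4 lower (median -0.39). Apoe and Nr1h3 (LXR alpha), both also expressed by macrophages, had 8.36 CPM in Th0 and 345 CPM in naive, and 0.801 CPM in Th0 and 48.5 CPM in naive. Of 18 genes of fatty acid synthesis and desaturation, 5 were higher and 2 lower (median 0.44). The desaturase paralogs differed in opposite directions, with Scd2 at 1457 CPM in Th0 and 117 CPM in naive and Scd1 at 43.7 CPM in Th0 and 126 CPM in naive. Fasn, fatty acid synthase, met neither rule at 219.8 CPM in Th0 and 216 CPM in naive. Of 14 lysophospholipid acyltransferases, 2 were higher and 3 lower (median -0.32). Lpcat4, which the series' title names, had 60.6 CPM in Th0 and 49.6 CPM in naive and met neither rule, and Mboat7, which remodels phosphatidylinositol, was 2.66-fold higher (2.43 to 2.92).

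Genes of one-carbon metabolism, serine synthesis and the ATF4 response were higher in Th0 for the most part. ATF4 is the transcription factor of the integrated stress response and of amino acid limitation. Of 26, 15 were higher and 4 lower (median 1.34). Asns, asparagine synthetase, had 78.0 CPM in Th0, 79.6 in Th17, 62.9 in Treg and 4.08 in naive. Ddit3 (CHOP) had 205 CPM in Th0, 87.8 in Th17, 59.0 in Treg and 22.7 in naive, Trib3, a pseudokinase target of ATF4, 18.4 CPM in Th0, 76.0 in Th17, 30.9 in Treg and 2.94 in naive, and Atf4 itself 827 CPM in Th0, 565 in Th17, 353 in Treg and 231 in naive. Cth, which makes cysteine, had 85 counts in Th0 and 0 in naive and was at least 39.7-fold higher. The mitochondrial enzymes Mthfd2 and Shmt2 had 259 CPM in Th0 and 50.8 CPM in naive, and 195 CPM in Th0 and 88.1 CPM in naive. Their cytosolic counterparts Mthfd1 and Shmt1 were lower, at 31.5 CPM in Th0 and 65.3 CPM in naive, and 3.43 CPM in Th0 and 9.80 CPM in naive. Of 27 amino acid transporters, 5 were higher and 11 lower (median -0.74), and of the 21 that were culture-expressed, 5 were higher and 5 lower (median -0.23). Slc7a5 and Slc3a2, which together form the large neutral amino acid transporter, were 2.99-fold higher (2.69 to 3.32) and 2.37-fold higher (2.23 to 2.52). Slc1a5, a glutamine transporter, met neither rule at 128 CPM in Th0 and 214 CPM in naive. Polyamine genes had 2 higher and 2 lower of 16 (median -0.03). Odc1, their rate-limiting enzyme, met neither rule at 251 CPM in Th0 and 152 CPM in naive.

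Of 36 heat shock and chaperone genes, 14 were higher and 1 lower (median 0.66), with between 10 and 15 higher over the scalings. Of the 22 without shared sequence, 5 were higher and 1 lower (median 0.39), which is near the 18.5% of all genes. The inducible HSP70 genes were far higher in Th0 than in the other libraries. Hspa1a had 439 CPM in Th0, 7.32 in Th17, 2.71 in Treg and 16.4 in naive, and Hspa1b had 612 CPM in Th0, 7.16 in Th17, 1.80 in Treg and 20.9 in naive. They are near-identical copies, so how their reads divide is uncertain, but both were lower in Th17 and Treg than in naive. The small heat shock gene Hspb1 had 267 counts in Th0 and 6 in naive. Hspe1, the mitochondrial co-chaperonin, had 757 CPM in Th0 and 117 CPM in naive, and Cct2 of the cytosolic chaperonin 704 CPM in Th0 and 301 CPM in naive. The constitutive gene Hspa8 met neither rule at 3216 CPM in Th0 and 2823 CPM in naive. In the unfolded protein response, 1 of 27 was higher and 6 were lower (median -0.29). The share of lower calls was 22.2%, against 27.2% of all tested genes. All 27 were culture-expressed, and 17.2% of culture-expressed genes were lower. Hspa5 (BiP), the main chaperone of the endoplasmic reticulum, had 182 CPM in Th0, 216 in Th17, 283 in Treg and 665 in naive, and Dnajb9, a BiP co-chaperone, had 14.4 CPM in Th0, 10.9 in Th17, 11.2 in Treg and 90.8 in naive.

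Metallothioneins bind zinc and copper and were among the genes furthest above naive. Mt2 had 212 CPM in Th0, 12.8 in Th17, 7.48 in Treg and 1.88 in naive and was 113-fold higher (75.1 to 179). Mt1 had 304 CPM in Th0, 26.6 in Th17, 12.2 in Treg and 7.35 in naive and was 41.4-fold higher (33.5 to 51.6). Both promoters held the metal response element TGCACNC, as did 11.8% of all promoters in the table. Over the list of metallothionein, zinc and iron genes 6 of 25 were higher and 6 lower. The median of 0.17 turned to -0.10 with library totals. Tfrc, the transferrin receptor, had 189 CPM in Th0 and 86.4 CPM in naive, while Hmox1 (haem oxygenase) and Slc40a1 (ferroportin), which are high in splenic macrophages, had 13.97 CPM in Th0 and 718 CPM in naive, and 0.114 CPM in Th0 and 358 CPM in naive. Of 31 antioxidant genes 9 were higher and 7 lower (median -0.16), or 4 and 7 of the 22 without shared sequence. Gss, glutathione synthetase, was 6.04-fold higher (5.07 to 7.23) and Prdx4, a peroxiredoxin of the endoplasmic reticulum, 4.50-fold higher (3.71 to 5.50). Gpx1 and Gsr were lower, at 91.2 CPM in Th0 and 328 CPM in naive, and 23.8 CPM in Th0 and 105 CPM in naive.

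Most genes of signalling below the T cell receptor met neither rule, as did 54.3% of all tested genes. Of 30 genes, 7 were higher, 2 lower and 21 neither, and the median of 0.02 turned to -0.25 with library totals. Ptprc (CD45), the phosphatase that licenses receptor signalling, had 5357 CPM in Th0, 988 in Th17, 1062 in Treg and 1989.5 in naive, and Zap70, the kinase recruited to the receptor, had 489 CPM in Th0 and 204 CPM in naive. Among negative regulators, Cblb, a ubiquitin ligase, was 4.41-fold higher (4.21 to 4.63) and the phosphatase Ptpn22 2.83-fold higher (2.70 to 2.97). Dgka, which removes the signalling lipid diacylglycerol, was lower at 504 CPM in Th0 and 1106 CPM in naive, and so was Nfatc2 at 67.5 CPM in Th0 and 159.9 CPM in naive.

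Receptors that adjust T cell activation were divided, with 8 of 30 higher and 12 lower (median -0.75). Over the 27 culture-expressed ones, 8 were higher and 9 lower (median -0.72). Lag3, an inhibitory receptor for MHC class II, had 346 CPM in Th0, 367 in Th17, 397 in Treg and 27.2 in naive. Tigit had 42.7 CPM in Th0 and 13.96 CPM in naive and Icos, a CD28 relative, 191 CPM in Th0 and 93.1 CPM in naive. Of the TNF receptor family, Tnfrsf18 (GITR) had 193 CPM in Th0 and 42.5 CPM in naive, and the ligand Tnfsf8 had 124 CPM in Th0 and 45.4 CPM in naive. Cd69, an early activation marker, met neither rule at 133 CPM in Th0 and 223 CPM in naive. The inhibitory receptor Pdcd1 (PD-1) was lower, at 1.603 CPM in Th0 and 18.6 CPM in naive, and Slamf6 was 11.6-fold lower (9.69 to 14.1).

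Lineage transcription factors had 8 of 37 higher and 10 lower (median -0.12). Over the 32 culture-expressed ones, 7 were higher and 8 lower (median 0.03). Hif1a, whose protein is stabilised by low oxygen, was the furthest above naive, with 1834 CPM in Th0, 1917 in Th17, 1378 in Treg and 175 in naive. Stat5a and Stat5b, which carry the IL-2 signal, had 369 CPM in Th0 and 101 CPM in naive, and 652 CPM in Th0 and 293 CPM in naive. Nfil3 was 2.97-fold higher (2.55 to 3.46) and Stat4, which carries the IL-12 signal, 2.51-fold higher (2.33 to 2.69). Maf was lower at 25.8 CPM in Th0 and 144 CPM in naive, as were Id2 at 21.1 CPM in Th0 and 159 CPM in naive and Zeb2 at 5.27 CPM in Th0 and 80.8 CPM in naive. Irf4, which is induced by receptor signalling, met neither rule at 83.6 CPM in Th0 and 92.8 CPM in naive.

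Of 23 cytokine genes tested, 4 were higher and 9 lower (median -0.73). Over the 13 culture-expressed ones, 2 were higher and 4 lower (median -0.40). The 4 called higher of all 23 were Il2, Il4, Il21 and Il24. Il2 had 3.43 CPM in Th0 and 1.14 CPM in naive, and Il4 had 3.55 CPM in Th0 and 0.898 CPM in naive. Il21 had 18.2 CPM in Th0 and 2.53 CPM in naive, and Il24 had 5.84 CPM in Th0 and 0 counts in naive. Tnf and the chemokine Ccl5 were lower, at 4.58 CPM in Th0 and 21.4 CPM in naive, and 4.92 CPM in Th0 and 64.9 CPM in naive. Cytokine receptors and SOCS genes had 5 of 41 higher and 10 lower (median -0.04). Il12rb2, the signalling chain of the IL-12 receptor, was 10.8-fold higher (9.30 to 12.6), and Cish, a STAT5 target, was 3.63-fold higher (3.28 to 4.02). Both share sequence with other transcripts. Il2ra (CD25) had 171 CPM in Th0, 1558 in Th17, 1287 in Treg and 71.0 in naive, and Jak3 had 644 CPM in Th0 and 238 CPM in naive. Il7r and Tgfbr2 were lower, at 134 CPM in Th0 and 437 CPM in naive, and 143 CPM in Th0 and 434 CPM in naive.

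Cytotoxic effector genes had 6 of 18 higher and 5 lower (median 0.32). Gzmb, granzyme B, had 147 CPM in Th0, 29.2 in Th17, 25.2 in Treg and 9.96 in naive. Serpinb6b, an intracellular protease inhibitor, was 12.7-fold higher (11.4 to 14.1) and Ctsw, a cathepsin of cytotoxic cells, 3.62-fold higher (3.22 to 4.08). Prf1, perforin, was lower at 5.84 CPM in Th0 and 31.6 CPM in naive.

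Genes of naive T cells and of homing were lower as a group but not throughout. Of 36, 18 were lower and 1 higher (median -1.05), and 17 of 34 culture-expressed ones were lower. S1pr1, which guides cells out of lymph nodes, had 193 CPM in Th0 and 541 CPM in naive. Slfn5, of the Schlafen family, was 39.99-fold lower (29.5 to 55.6), with shared sequence elsewhere. Ccr7, the lymph node homing receptor, met neither rule at 269 CPM in Th0 and 295 CPM in naive. So did the factors of naive and memory T cells Tcf7, at 1517 CPM in Th0 and 996 CPM in naive, and Lef1, at 263 CPM in Th0 and 303 CPM in naive. Pik3ip1, a PI3K inhibitor of resting T cells, was the member called higher, at 188 CPM in Th0 and 78.1 CPM in naive. Gimap GTPases, which support lymphocyte survival, had 1 higher and 1 lower of 8, with a median of 0.09 that turned to -0.18 with library totals. Gimap7 had 384 CPM in Th0 and 54.6 CPM in naive, and Gimap8 had 80.7 CPM in Th0 and 389 CPM in naive.

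Chemokine receptors and integrins had 21 of 31 lower and 1 higher (median -1.85). Over culture-expressed genes, 15 of 24 were lower (median -1.42). Itga4 and Itgb1, which form the VLA-4 integrin, had 155 CPM in Th0 and 808 CPM in naive, and 83.7 CPM in Th0 and 321 CPM in naive. Cxcr4 had 39.6 CPM in Th0 and 259 CPM in naive and Cxcr3 1.72 CPM in Th0 and 46.0 CPM in naive. Ccr8 was the member called higher, at 18.9 CPM in Th0 and 7.10 CPM in naive. Several of these receptors also mark monocytes and granulocytes, among them Ccr1, Ccr2 and Ccr3, which had 0.114, 2.40 and 0 CPM in Th0, against 21.7, 45.8 and 74.6 CPM in naive.

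Immediate early genes, which respond within minutes to stimulation, had 22 of 30 lower and 2 higher (median -2.24). Over culture-expressed genes, 20 of 28 were lower (median -2.18). Junb had 107 CPM in Th0, 581 in Th17, 419.6 in Treg and 1910.1 in naive. Dusp1, a phosphatase of MAP kinases, had 8.59 CPM in Th0, 16.6 in Th17, 20.6 in Treg and 568 in naive, and Zfp36 (tristetraprolin), which destabilises cytokine messages, had 113 CPM in Th0, 102 in Th17, 63.03 in Treg and 874 in naive. The 2 members called higher were Nr4a3, an orphan nuclear receptor induced by the T cell receptor, with 216 CPM in Th0, 55.2 in Th17, 182 in Treg and 17.3 in naive, and the AP-1 gene Fosl2, with 254 CPM in Th0 and 82.8 CPM in naive. NF-kappaB genes had 4 of 24 higher and 6 lower. Their median of 0.06 turned to -0.21 with library totals. Tnip3, an inhibitor of NF-kappaB signalling, was 100.5-fold higher (52.6 to 221). Rel (c-Rel) had 456 CPM in Th0 and 205 CPM in naive, while Tnfaip3 (A20), a brake on the pathway, was 4.65-fold lower (4.42 to 4.90).

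Interferon-stimulated genes, the antiviral programme below type I interferon, had 28 of 35 lower and 0 higher (median -2.66). Over culture-expressed genes, 9 of 16 were lower (median -1.15). Irf7, the amplifier of the response, had 4.12 CPM in Th0, 3.96 in Th17, 7.75 in Treg and 96.4 in naive. Rtp4 had 2 counts in Th0 and 624 in naive, and Ifih1 (MDA5), a sensor of double-stranded RNA, was 29.1-fold lower (18.9 to 47.3). Parp14 had 32.4 CPM in Th0 and 332 CPM in naive. Ifi27l2a and Stat2 met neither rule, at 281 CPM in Th0 and 167 CPM in naive, and 191 CPM in Th0 and 128 CPM in naive. GTPases induced by interferon gamma had 11 of 19 lower and 3 higher (median -1.18), or 8 of 13 lower over culture-expressed genes. Irgm1 had 34.0 CPM in Th0 and 137 CPM in naive and Iigp1 1.14 CPM in Th0 and 40.02 CPM in naive. The 3 called higher were Gbp10 and 2 identifiers both named Gbp6, which share sequence with one another, so their counts are uncertain. Markers of macrophages and dendritic cells, which also express interferon-stimulated genes, were lower in Th0 beside these lists, and their part in these counts was not tested.

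Setd2 is named in the series' title and encodes the enzyme that adds the trimethyl mark to H3K36. It had 341 CPM in Th0 and 246 CPM in naive and met neither rule. Its ratio was 1.39-fold higher (1.32 to 1.46). Of 8 genes listed as H3K36 methyltransferases 3 were higher and 1 lower, and the median of 0.07 turned to -0.19 with library totals. Setd3, whose activity on H3K36 is not established, was among those higher, at 190.2 CPM in Th0 and 90.2 CPM in naive. Of 14 genes of the PRC2 complex and the H3K27 demethylases, 3 were higher and 2 lower (median 0.65). Ezh2, the PRC2 methyltransferase of dividing cells, had 327 CPM in Th0, 62.1 in Th17, 77.2 in Treg and 50.8 in naive, while Ezh1 met neither rule at 188 CPM in Th0 and 109 CPM in naive. The demethylase Kdm6b was lower at 78.4 CPM in Th0 and 203 CPM in naive. Of 15 DNA methylation and TET genes 4 were higher and 2 lower, with a median of 0.20 that turned to -0.08 with library totals. Tet2 had 247 CPM in Th0 and 99.6 CPM in naive and Tet1 13.6 CPM in Th0 and 31.3 CPM in naive. Uhrf2 had 258 CPM in Th0 and 110.0 CPM in naive, and Dnmt1, the maintenance methyltransferase, met neither rule at 399 CPM in Th0 and 244 CPM in naive.

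Most proteasome genes met neither rule, while splicing genes did so at a share nearer to the 54.3% of all tested genes. Of 37 proteasome subunits, 33 met neither rule, 3 were higher and 1 lower, and the median of 0.24 turned to -0.03 with library totals. Psmb10, an immunoproteasome subunit, was the lower one at 27.7 CPM in Th0 and 82.8 CPM in naive. Of 31 SR and hnRNP splicing factors, 9 were higher, 3 lower and 19 neither. Their median of 0.27 turned to -0.01 with library totals. Srsf1 was 4.03-fold higher (3.79 to 4.29), and Srsf6 was lower at 140.1 CPM in Th0 and 391.6 CPM in naive.

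Among single genes outside these lists, the furthest above naive included several best known from other tissues. Tg, which encodes thyroglobulin (chromosome 15, 66670753 to 66850721, GRCm38), had 251 CPM in Th0, 186 in Th17, 219.8 in Treg and 1.31 in naive. Its locus holds Sla, an adaptor gene of T cells, on the other strand, with 207 CPM in Th0 and 229 CPM in naive, and without strand information their reads cannot be told apart. Lama5 (chromosome 2, 180176373 to 180225859), a laminin chain, had 98.1 CPM in Th0, 351 in Th17, 450.4 in Treg and 0.817 in naive. Its level was highest in Treg. Serpinb5 (chromosome 1, 106861173 to 106883348), a serpin of epithelial cells, had 365 counts in Th0 and 0 in naive, and was at least 171-fold higher. It stood at 41.8 CPM in Th0, 13.3 in Th17 and 0.451 in Treg. Ybx2 (chromosome 11, 69935796 to 69941605), a germ cell RNA-binding protein, had 252 counts in Th0 and 0 in naive, which was 28.8 CPM in Th0, 11.6 in Th17 and 11.001 in Treg. All 4 genes were thus also above naive in Th17 and Treg, with counts as low as 5 for Serpinb5 in Treg.

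Below naive, among culture-expressed genes, Axl, a receptor tyrosine kinase, had 7.78 CPM in Th0, 79.1 in Th17, 123 in Treg and 424 in naive, and C3, a complement component, had 2.06 CPM in Th0, 25.9 in Th17, 27.95 in Treg and 186 in naive. Adrbk2, a G protein-coupled receptor kinase, had 1.83 CPM in Th0, 7.09 in Th17, 16.2 in Treg and 165 in naive, and Wdfy4, known for cross-presentation in dendritic cells, had 6.64 CPM in Th0, 14.3 in Th17, 3.79 in Treg and 378 in naive. Genes of broad expression were also among those that lost the most CPM, outside mitochondrial and immunoglobulin genes. Macf1, a cytoskeletal linker, had 986 CPM in Th0, 827 in Th17, 886 in Treg and 2621 in naive. Psap, which encodes lysosomal saposins, had 842 CPM in Th0, 665 in Th17, 737 in Treg and 2417 in naive. Zfp36l2, an RNA-binding protein that destabilises messages, had 369 CPM in Th0, 208 in Th17, 194 in Treg and 1713 in naive. Flna (filamin A) had 285 CPM in Th0, 580.5 in Th17, 648 in Treg and 1409 in naive, and Rnf213, a ubiquitin ligase, had 132 CPM in Th0, 175 in Th17, 189.7 in Treg and 1153 in naive. Among the largest gains outside predicted and mitochondrial genes, ribosomal proteins, elongation factors and Ptprc were Gnb2l1 (RACK1), a ribosome-bound scaffold, with 3423 CPM in Th0, 1803 in Th17, 2128 in Treg and 1086 in naive, and Tubb5, a beta tubulin, with 2879 CPM in Th0, 1221 in Th17, 1147 in Treg and 568 in naive. Th0 was the highest of the 4 libraries for both.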

How the data were processed

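Total RNA was extracted with TRIzol and sequenced on an Illumina HiSeq, per the labels' protocols. The submitters' processing notes name the tools Bowtie2 and RSEM and the builds GRCm38.p6 and mm10, but neither their versions nor what each did. Whether counting used strand, the read length and the annotation are not given in the sources. Per the file headers, the authors deposited read counts, which are whole numbers and not normalized, and FPKM values beside them. FPKM equalled the count over gene length and table total for all 8988 genes that reached 50 counts in each of the 4 libraries (tolerance 0.1%). Of the identifiers, 34267 (98.6%) were in GENCODE vM21, and 34246 of their loci overlapped.

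Groups came from the labels' cell types. TMM factors (edgeR 4.0.16, R 4.3.3) over genes with at least 10 counts in a library were 0.850 for Th0 and 1.03 for naive. The log2 ratio used a pseudocount of 1 CPM, which understates low genes. Calls needed a 2-fold difference and a 95% exact conditional (Clopper-Pearson) interval excluding 1. No count model was fitted, for want of replicates. Reads carry no molecular identifiers. The 9 marker lists, 47 gene lists and genes to be named were chosen with earlier results of these data known. Genes named were the 12 furthest apart by ratio in each direction, the 12 with the largest gain and loss in CPM, up to 4 called members a list with the largest ratios, its highest by FPKM and 2 meeting neither rule. Setd2 and Lpcat4 were named from the series' title. Further list members, given as examples, were picked after their values were seen, and some genes that the rule allows are not reported here. Shared sequence means at least 300 nt at 95% identity with a transcript of another gene (minimap2). The call rule was run on simulated Poisson counts with known changes planted. These counts held no spread between libraries, so the run covers counting error only. DESeq2 1.42.0 size factors, other scalings, pseudocounts, filters and FPKM were alternatives. Ratios and intervals were computed in Python 3.11.15 (scipy 1.17.1, numpy 2.4.6, pandas 2.3.3), and plots were drawn with matplotlib 3.10.9.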

Additional observations from a re-analysis of the deposited data

How the results depend on the processing

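With 1 library a side, neither replicate spread nor batch could be separated from stimulation, and depth limits genes near 3 counts, which is 0.343 CPM in Th0 and 0.245 CPM in naive. Over 12 alternatives the number of genes called lower, 3807, came to 2328 with a pseudocount of 5 CPM and to 1640 over the genes that reached 10 CPM in Th17 or Treg (culture-expressed), the first of which damps the ratios of low genes and the second tests fewer genes by construction. Genes called higher numbered 1456 with the authors' FPKM, which are scaled to library totals and add 1 to a value per kilobase, against 2590. The other counts stayed within 1.5 times, from 1884 to 2798 higher and from 2996 to 4482 lower. The share of calls that were higher was 40.5%, 29.6% with library totals and, with TMM scaling, 55.5% over culture-expressed genes, a set that leans to higher calls by construction. Of 56 lists, 11 had medians that changed sign over the 5 other scalings. The CD8 T and NK cell median turned from -1.29 to 0.48 over its 6 culture-expressed genes of 11. Of 267 genes named in the text, 231 kept their direction and side of the call rule under every alternative that gave them a value, 77 of the single values missed the call rule and 8 newly met it. No paired analysis was possible because each group has 1 library and no test was made.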
